A study of Mus musculus with 8 samples.

Results

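Red pulp macrophages are the resident macrophages of the spleen that take up ageing red blood cells and return the iron of their haemoglobin to the circulation. The mRNA levels of 10 genes that serve as markers of these cells or carry out their scavenging were followed in whole mouse spleen: the transcription factor gene Spic, the surface protein genes Emr1 and Vcam1, the scavenger and lectin receptor genes Cd163, Mrc1, Marco and Cd68, and the apoptotic cell receptor genes Axl, Mertk and Timd4. The genes were taken by name and are 10 of the 17738 gene symbols measured and 13 of the 23517 RefSeq transcripts. Axl was listed with 3 transcripts and Cd163 with 2, and each gene is described by its transcript of highest mean level.

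Spleens came from untreated male C57BL/6 mice of 8 to 12 weeks, 4 wild-type and 4 of the genotype TTPΔARE, and each sample was the total RNA of 1 mouse. Tristetraprolin (TTP), the product of Zfp36, is an RNA-binding protein that attaches to AU-rich stretches after the coding sequence, in the 3′ untranslated region (3′ UTR), and so speeds the decay of an mRNA. The TTPΔARE allele removes such an element from the Zfp36 mRNA itself, in the germ line and so in every cell type. The labels give neither the number of altered copies, nor litters, nor batches. The comparison asks how the level of each gene differs between the genotypes in a tissue of many cell types, in which more cells of a type and more RNA per cell cannot be told apart. Levels are FPKM, sequenced fragments scaled to transcript length and library depth. Depth was estimated at 28.35 to 32.25 M fragments per sample.

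Spi-C, the product of Spic, is a relative of PU.1 that the development of red pulp macrophages requires, and heme released from engulfed red cells induces it. These macrophages carry F4/80, the product of Emr1 (now Adgre1), and the adhesion molecule VCAM-1, although sinus endothelium also carries VCAM-1. CD163 takes up haemoglobin bound to haptoglobin, the mannose receptor Mrc1 binds glycoproteins, and CD68 is a glycoprotein of lysosomes. Marco, a scavenger receptor for bacteria, marks in mouse spleen mainly the macrophages of the marginal zone that borders the red pulp. Axl and Mertk are receptor tyrosine kinases of the TAM family (Tyro3, Axl, Mertk), which reach phosphatidylserine on dying cells through the bridging ligands Gas6 and protein S, whereas Tim-4, the product of Timd4, binds phosphatidylserine directly.

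Zfp36, the altered gene, was measured first. It stood at 37.9, 42.1, 44.9 and 36.4 FPKM in wild-type replicates 1 to 4 and at 57.5, 46.1, 55.1 and 52.9 FPKM in TTPΔARE replicates 1 to 4, so every TTPΔARE value lay above every wild-type value. The difference was 0.39 on the log2(FPKM + 0.5) scale (SE 0.0848, limma adjusted p = 0.0323). The call was lost with an erythroid covariate (0.21, limma adjusted p = 0.873), a fit in which no transcript passed. It was also lost in 5 of the 8 omissions of single spleens (limma adjusted p of 0.0668 to 0.108). These were the omissions of replicates 1 and 4 of both genotypes and of TTPΔARE replicate 3. Reads outside the deleted element do not show the deletion itself, so this level does not check the genotype labels.

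All 10 genes were detected in all 8 spleens, and all 10 passed the minimum mean of 0.5 FPKM for testing. Two-sided tests with limma covered 16608 transcripts, with p-values adjusted over all of them by the Benjamini-Hochberg method. Emr1 and Marco, 2 of the 10 genes, rose in TTPΔARE spleen at an adjusted p under 0.05. None fell, although Timd4 had an unadjusted p of 0.0387 in limma. Over all transcripts tested, 333 or 2.01% rose and 331 or 1.99% fell. These 2 genes were also the ones without overlap between the groups, every TTPΔARE value above every wild-type value, as for 1085 or 6.53% of all transcripts tested. The median difference of the 10 genes was 0.24 on the log2 scale, against 0.00313 over all transcripts tested, and 9 of the 10 differences were above 0, as were 51.0% of all. At an unadjusted p under 0.05 in limma there were 5 of the 10 genes, beside 3503 of the 16608 transcripts tested. The same share of all transcripts stands beside the unadjusted counts of the gene lists below. No call of Emr1 or Marco held with a covariate for erythroid gene levels. That covariate itself separates the genotypes, and none of the 16608 transcripts passed in that fit. Both calls also depended on single spleens, as given with each gene.

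**Figure D1:**
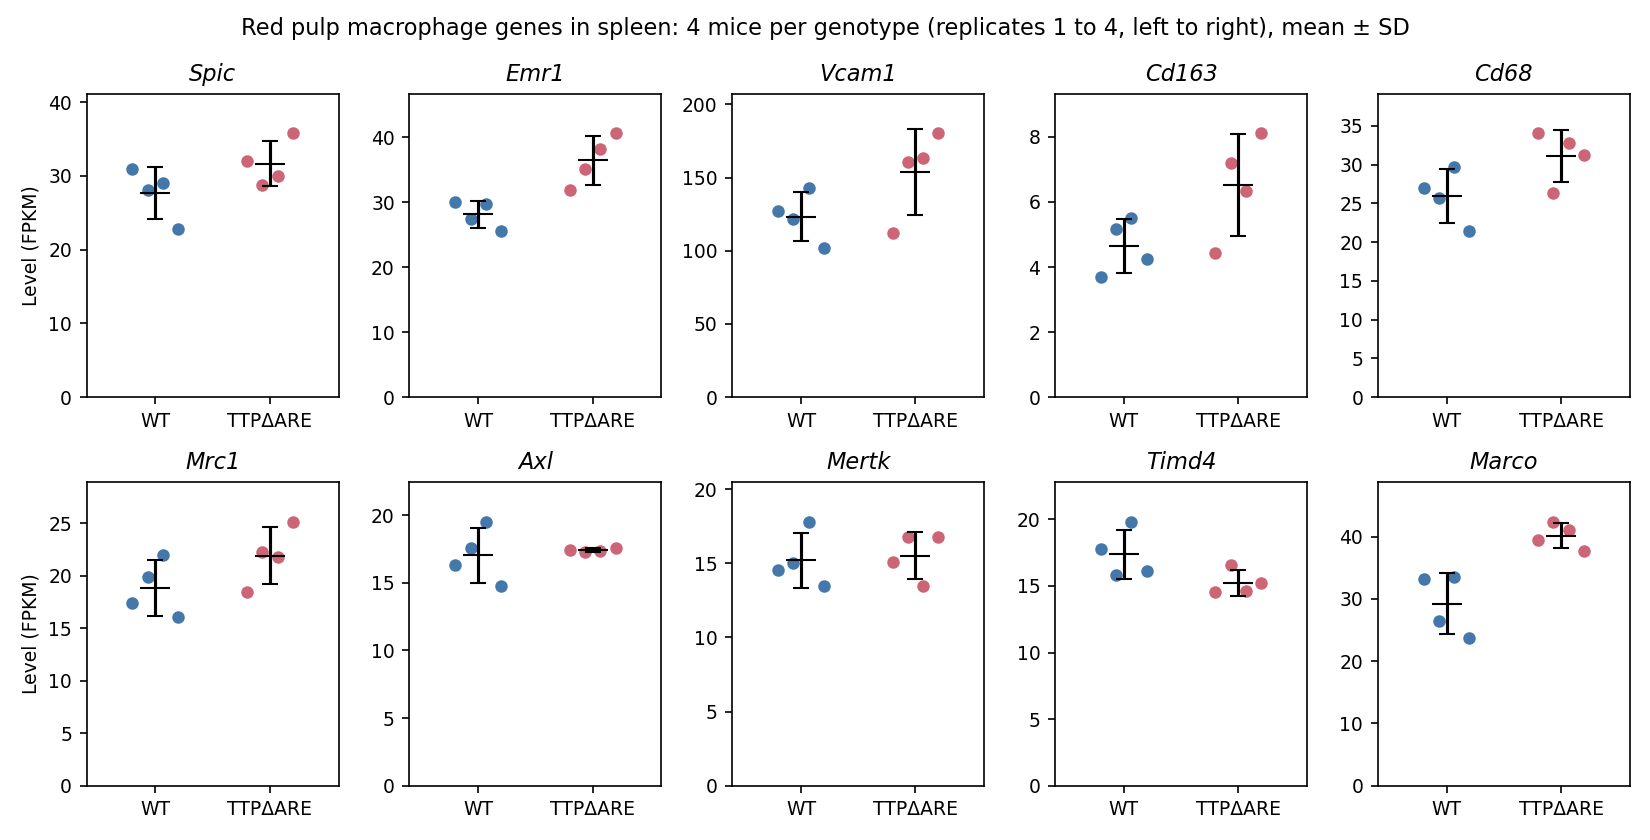
Levels in FPKM (vertical axes, each from 0) of the 10 genes in wild-type (WT, blue) and TTPΔARE (red) spleens; each point is 1 mouse, replicates 1 to 4 from left to right, and the black marks are the mean ± SD of 4. The TTPΔARE points of Emr1 (31.9 to 40.7) and Marco (37.7 to 42.4) lie above all wild-type points, the points of the other 8 genes overlap, and the 4 TTPΔARE points of Axl lie between 17.3 and 17.6.

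Since FPKM is per length, the genes can be ordered by level. Vcam1 had the highest level, with a mean of 138.7 FPKM over the 8 spleens, and its lowest value (101.6) was above the highest of any other of the 10 genes. Marco (34.7), Emr1 (32.3), Spic (29.7) and Cd68 (28.5) followed with overlapping ranges. Mrc1 had a mean of 20.4 FPKM and was below Cd68 in 8 of 8 spleens, although their ranges overlapped. Axl (17.2), Timd4 (16.3) and Mertk (15.4) overlapped again, each being above the next in 5 of 8 spleens. Cd163 was the lowest, at 5.58 FPKM, with all its values below those of the other genes. The estimated number of fragments ran from 461 to 1153 per spleen for Cd163 and from 11349 to 20177 for Vcam1. Counting error at the lowest of these is 4.66% for Cd163 and 0.939% for Vcam1, less than the spread between mice.

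Spic (chr10:88675269-88683023, GRCm38.p6) encodes the transcription factor of the lineage. Its level was 31.0, 28.0, 29.1 and 22.8 FPKM in the wild-type spleens and 32.0, 28.8, 30.04 and 35.8 FPKM in the TTPΔARE spleens. The highest value was TTPΔARE replicate 4 and the lowest wild-type replicate 4, and the groups overlapped. The means were 27.7 ± 3.52 and 31.7 ± 3.08 FPKM (SD, n = 4 each), a difference of 0.19 on the log2 scale that did not pass (95% interval -0.02 to 0.41, limma adjusted p = 0.286). Without wild-type replicate 4 the difference was 0.10. The interval holds both 0 and the difference of Emr1.

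Emr1 (chr17:57358581-57483529) encodes F4/80, the surface protein by which tissue macrophages of the mouse are commonly recognised. It measured 29.99, 27.5, 29.7 and 25.6 FPKM in wild-type and 31.9, 35.1, 38.2 and 40.7 FPKM in TTPΔARE spleens. The lowest TTPΔARE value lay just above the highest wild-type value. Emr1 rose 1.29-fold in group mean, from 28.2 ± 2.07 to 36.5 ± 3.78 FPKM (SD, n = 4 each), or 0.36 on the log2 scale (SE 0.0811, 95% interval 0.18 to 0.54, limma adjusted p = 0.0354). By exact permutation of the 8 samples (two-sided, 70 assignments) p was 0.0286, the smallest possible. Omitting wild-type replicate 2 (adjusted p = 0.0687) or 4 (0.0967), or TTPΔARE replicate 3 (0.117) or 4 (0.102), ended the call, with differences of 0.31 to 0.42 over the 8 omissions.

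Vcam1 (chr3:116110020-116129688) had wild-type values of 127.0, 122.0, 142.9 and 101.6 FPKM and TTPΔARE values of 111.9, 160.7, 163.3 and 180.3 FPKM. In TTPΔARE replicates 2, 3 and 4 it was above every wild-type spleen, whereas replicate 1 was below 3 of the 4. The means of 123.4 ± 17.0 and 154.1 ± 29.4 FPKM (SD, n = 4 each) differed by 0.31 on the log2 scale, which did not pass (95% interval -0.01 to 0.62, limma adjusted p = 0.244; exact permutation p = 0.114). Vcam1 and Emr1 varied together within the groups: their deviations from the group means correlated at r = 0.91 over the 8 spleens, the highest of the 45 pairs of the 10 genes, of which the median r was 0.52. This is a description, as both genes share the depth and tissue composition of each library, which can differ between spleens.

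Cd163 (chr6:124304636-124330529) resembled Vcam1 in its pattern over the TTPΔARE mice. It stood at 3.69, 5.16, 5.49 and 4.24 FPKM in wild-type and at 4.44, 7.19, 6.33 and 8.11 FPKM in TTPΔARE spleens. Again TTPΔARE replicates 2, 3 and 4 were above all wild-type spleens and replicate 1 was within their range. The difference of 0.43 on the log2 scale, from 4.64 ± 0.828 to 6.52 ± 1.56 FPKM (SD, n = 4 each), was close to that of Marco in size but did not pass (95% interval 0.08 to 0.79, limma adjusted p = 0.155). Without TTPΔARE replicate 1 it was 0.59 and passed (adjusted p = 0.0422). The second transcript gave 0.41.

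Marco (chr1:120474538-120505024) had the largest difference of the 10 genes on the log2(FPKM + 0.5) scale, although the ratio of group means was higher for Cd163 (1.40). It measured 33.2, 26.5, 33.6 and 23.8 FPKM in wild-type and 39.5, 42.4, 41.1 and 37.7 FPKM in TTPΔARE spleens. The wild-type values formed a high and a low pair, and all 4 TTPΔARE values were above both. Marco rose 1.37-fold in group mean, from 29.3 ± 4.90 to 40.2 ± 2.05 FPKM (SD, n = 4 each), or 0.46 on the log2 scale (SE 0.104, 95% interval 0.24 to 0.69, limma adjusted p = 0.0346; exact permutation p = 0.0286). The difference stayed between 0.37 and 0.53 when single spleens were left out, but the call ended on omission of wild-type replicate 2 (adjusted p = 0.0715) or 4 (0.0726) or of any 1 of TTPΔARE replicates 1 to 4 (0.0642, 0.0656, 0.106 and 0.0666). It was lost too when transcripts of low level were tested as well (adjusted p = 0.0518).

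Another gene of marginal zone macrophages, Cd209b (SIGN-R1), stood at 5.23 ± 1.28 and 5.94 ± 1.28 FPKM (SD, n = 4 each). Its log2 difference was 0.17 (95% interval -0.18 to 0.53, limma adjusted p = 0.602), and this interval holds both 0 and the 0.46 of Marco. Siglec1, which marks the metallophilic macrophages at the inner edge of the marginal zone, stood at 10.7 ± 1.86 and 8.89 ± 0.505 FPKM (log2 -0.24, 95% interval -0.47 to -0.01, adjusted p = 0.221). Neither passed the test.

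Mrc1 (chr2:14229414-14332023), which encodes the mannose receptor CD206, measured 17.4, 19.9, 22.0 and 16.1 FPKM in wild-type and 18.5, 22.2, 21.8 and 25.2 FPKM in TTPΔARE spleens. Only TTPΔARE replicates 2 and 4 were above all wild-type spleens. The difference of 0.22 on the log2 scale did not pass (95% interval -0.02 to 0.45, limma adjusted p = 0.285). Within the groups Mrc1 varied together with Cd163 (r = 0.90) and Vcam1 (r = 0.89).

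Cd68 (chr11:69664213-69666170) measured 27.0, 25.7, 29.7 and 21.4 FPKM in wild-type and 34.1, 26.4, 32.8 and 31.2 FPKM in TTPΔARE spleens. Here it was TTPΔARE replicate 2, not replicate 1, that lay within the wild-type range. The means of 26.0 ± 3.47 and 31.1 ± 3.38 FPKM (SD, n = 4 each) differed by 0.26 on the log2 scale, which did not pass (95% interval 0.03 to 0.49, limma adjusted p = 0.182) and was 0.17 if wild-type replicate 4 is omitted. Its deviations went with those of Cd163 least of all pairs (r = -0.13).

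**Figure D2:**
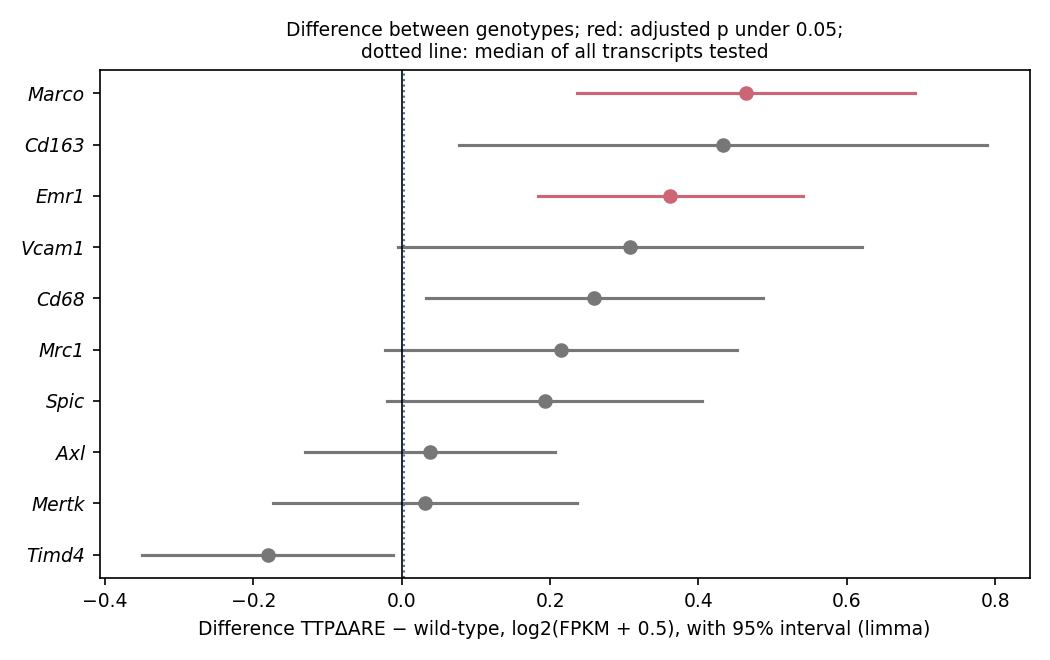
Difference between genotypes (TTPΔARE minus wild-type, log2(FPKM + 0.5), horizontal axis) for each of the 10 genes, with its 95% interval from limma; red marks an adjusted p under 0.05 and the dotted line the median of all transcripts tested. Marco (0.46) and Emr1 (0.36) are red, Cd163 (0.43) has the widest interval, Axl (0.04) and Mertk (0.03) lie near 0, and Timd4 (-0.18) is the one point below 0.

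Of the apoptotic cell receptors, none passed the test. Axl (chr7:25756500-25788924) measured 16.3, 17.6, 19.5 and 14.7 FPKM in wild-type and 17.4, 17.3, 17.3 and 17.6 FPKM in TTPΔARE spleens. All TTPΔARE values fell between the lowest and the highest wild-type value, with an SD of 0.144 against 2.02 FPKM in wild-type. The means of 17.0 and 17.4 FPKM differed by 0.04 on the log2 scale (95% interval -0.13 to 0.21, limma adjusted p = 0.8292), and the other 2 transcripts by 0.06 and 0.09. Axl lies 2.59 Mb from Zfp36 on the same chromosome.

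Mertk (chr2:128698915-128803162) stood at 14.5, 15.0, 17.8 and 13.5 FPKM in wild-type and 15.1, 16.8, 13.5 and 16.8 FPKM in TTPΔARE spleens. The 2 ranges were nearly the same, and the difference was 0.03 on the log2 scale (95% interval -0.17 to 0.24, limma adjusted p = 0.893). For Axl and Mertk the intervals leave out a rise as large as the 0.36 of Emr1, though the sign of both differences changed with the processing.

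Timd4 (chr11:46810786-46844333) was the gene with a lower mean in TTPΔARE spleen. It measured 17.7, 15.9, 19.8 and 16.1 FPKM in wild-type and 14.5, 16.6, 14.6 and 15.3 FPKM in TTPΔARE spleens. TTPΔARE replicates 1, 3 and 4 were below every wild-type spleen and replicate 2 was within their range. The means of 17.4 ± 1.83 and 15.2 ± 0.968 FPKM (SD, n = 4 each) differed by -0.18 on the log2 scale, which did not pass (95% interval -0.35 to -0.01, limma adjusted p = 0.210; exact permutation p = 0.0857). It was -0.12 on omission of wild-type replicate 3.

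The ratio of 2 of the genes within a spleen compares them without the scaling between libraries. This comparison was added after the values were seen. Over all 45 pairs, 6 ratios did not overlap between the genotypes: Emr1 to Timd4, Vcam1 to Timd4, Mrc1 to Timd4, Timd4 to Marco, Emr1 to Mertk and Axl to Marco. The log2 ratio of Timd4 to Marco went from -0.74 ± 0.141 in wild-type to -1.40 ± 0.0849 in TTPΔARE spleens (SD, n = 4 each), a difference of -0.66. That of Emr1 to Timd4 went from 0.70 ± 0.0950 to 1.25 ± 0.171, a difference of 0.55. Each of the 6 reached the smallest exact permutation p of 0.0286, which became 0.198 after Benjamini-Hochberg adjustment over the 45 pairs. With that smallest p, few pairs at it could not pass an adjustment over 45, so the adjusted value decides nothing about them. The pairs also share genes and are not independent, so the ratios are given as a description.

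**Figure D3:**
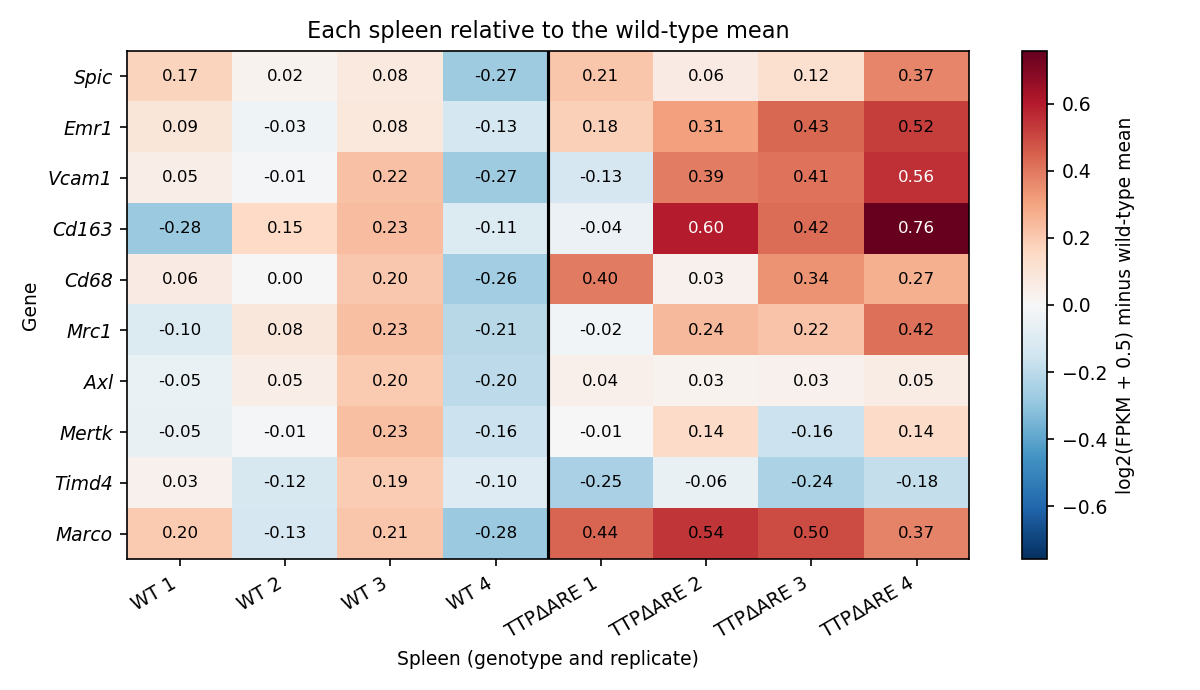
Level of each gene (rows) in each spleen (columns; WT is wild-type) as log2(FPKM + 0.5) minus the wild-type mean of that gene, by colour and printed value; the vertical line parts the genotypes. Wild-type replicate 4 is below the wild-type mean for 10 of 10 genes and replicate 3 above it for 10 of 10, Timd4 is below it in all 4 TTPΔARE spleens, and the highest value is Cd163 in TTPΔARE replicate 4 (0.76).

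The mice of 1 genotype differed from each other across the genes. Wild-type replicate 3 had the highest wild-type value for 8 of the 10 genes and replicate 4 the lowest for 8. The median over the genes, relative to the wild-type mean, was 0.21 in replicate 3 and -0.20 in replicate 4 on the log2 scale. Among TTPΔARE spleens the same median was 0.02, 0.19, 0.28 and 0.37 in replicates 1 to 4. TTPΔARE replicate 4 held the highest value of its group for 7 genes and replicate 1 the lowest for 5. The summed level of the 10 genes was 260 to 350 FPKM in wild-type and 319 to 409 FPKM in TTPΔARE spleens, with TTPΔARE replicate 1 within the wild-type range.

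TTP-binding sites were looked for in the 3′ UTRs as letters only. The heptamer TATTTAT and the nonamer TTATTTATT, which contains the heptamer, were searched on the sense strand of the longest 3′ UTR of each gene in GENCODE M21 (GRCm38.p6). The heptamer was present in Vcam1 (1), Mrc1 (2) and Mertk (1), 3 of the 10 genes, as in 27.6% of 21037 genes with a 3′ UTR. None of the 10 had the nonamer, which 7.65% of those genes had. The genes that rose, Emr1 with a 3′ UTR of 407 bases and Marco with 121 bases, held no heptamer. Both were shorter than the median of 960 bases over all genes with a 3′ UTR, and a short sequence holds fewer matches. The shorter run ATTTA, not counted over all genes, occurred 2 times in Emr1 and 0 times in Marco. The sites are printed with 11 bases on either side and the heptamer in capitals, to show what the counts rest on. For Vcam1 the counted site lies in the longest 3′ UTR, and that of the measured transcript, whose shorter 3′ UTR also holds 1 heptamer, is printed after it.
Vcam1, longest 3′ UTR, chr3:116123475-116123503, minus strand: gatatgtggtaTATTTATacaatgtggaa
Vcam1, measured transcript, chr3:116110829-116110857, minus strand: agaagagacatTATTTATaaaacccagat
Mrc1, first site, chr2:14331676-14331704, plus strand: attgagaactgTATTTATccacatgtaga
Mrc1, second site, chr2:14331858-14331886, plus strand: ataaataatgcTATTTATtatctaattaa
Mertk, chr2:128802798-128802826, plus strand: aatacataataTATTTATttaaagagaga
On the log2 scale the differences of these 3 genes were 0.31, 0.22 and 0.03, and none passed the test. A match is a run of letters and was not tested as a binding site.

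Spi-C and PU.1 bind purine-rich sequences with a GGAA core known as PU boxes. The letters GAGGAA were searched on both strands, so also as TTCCTC, in RefSeq promoter windows (GRCm38.p6) from 250 bases before to 50 bases after the start site. Windows were found for 8 of the genes, all but Emr1 and Vcam1. The box was present in Marco (1), Axl (1), Cd68 (2) and Mrc1 (3), 4 of 8 windows, and in 28.3% of all 32851 windows. At least 3 boxes occurred in 0.685% of all windows. The windows of Marco, which rose, and of Mrc1, with the most boxes, are printed with the boxes in capitals.
Marco, chr1:120504975-120505274, minus strand: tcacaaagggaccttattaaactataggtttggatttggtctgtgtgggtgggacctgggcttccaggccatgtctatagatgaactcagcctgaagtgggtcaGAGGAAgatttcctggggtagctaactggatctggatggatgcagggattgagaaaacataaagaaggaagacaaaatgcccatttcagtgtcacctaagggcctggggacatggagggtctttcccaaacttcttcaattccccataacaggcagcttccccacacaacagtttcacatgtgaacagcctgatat
Mrc1, chr2:14229164-14229463, plus strand: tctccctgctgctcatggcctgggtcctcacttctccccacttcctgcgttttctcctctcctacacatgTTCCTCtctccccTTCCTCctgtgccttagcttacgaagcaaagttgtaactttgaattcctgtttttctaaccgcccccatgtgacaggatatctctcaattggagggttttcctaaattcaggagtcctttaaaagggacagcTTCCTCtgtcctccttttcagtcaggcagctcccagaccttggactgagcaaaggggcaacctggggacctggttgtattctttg
The box of Marco begins 146 bases before the start site, and those of Mrc1 begin 180, 167 and 35 bases before it. Spic itself, Cd163, Mertk and Timd4 had none of these letters in their windows. These are matches of letters, with no measure of binding.

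The partners of the receptors were followed from lists chosen by function. Of the TAM ligands, Gas6 stood at 15.5 ± 1.499 and 17.9 ± 1.33 FPKM in wild-type and TTPΔARE spleen (SD, n = 4 each; log2 0.21, limma adjusted p = 0.156) and Pros1, which encodes protein S, at 6.43 ± 0.662 and 7.53 ± 0.591 FPKM (log2 0.22, adjusted p = 0.158). Tyro3, the remaining TAM receptor, was below the minimum for testing, at 0.421 ± 0.0563 and 0.472 ± 0.0846 FPKM. Of 18 tested genes for TAM partners and clearance of phosphatidylserine-bearing cells, 1 rose and 1 fell, with a median of 0.14 (0.10 to 0.18 when single spleens were left out). Of these 18 genes, 7 had an unadjusted p under 0.05 in limma. Itgb3, an integrin subunit of platelets and phagocytes, was 9.90 ± 1.87 FPKM in wild-type and rose to 15.7 ± 1.37 FPKM (log2 0.65, adjusted p = 0.0121). Mfge8, a secreted bridge between phosphatidylserine and integrins that follicular dendritic cells of the spleen also make, fell from 80.3 ± 3.53 to 53.0 ± 9.19 FPKM (log2 -0.61, adjusted p = 0.0139). The call of Mfge8 was lost without wild-type replicate 4 (0.05005) or TTPΔARE replicate 3 (0.0528).

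None of 7 genes for VCAM-1-binding integrins and macrophage growth factors passed in limma, with 2 at an unadjusted p under 0.05 and a median of 0.02 (-0.02 to 0.06 when single spleens were left out). Csf1r, the receptor on which macrophages depend for survival, stood at 86.2 ± 5.75 and 85.7 ± 4.65 FPKM (SD, n = 4 each; log2 -0.01, 95% interval -0.15 to 0.14). Its ligand gene Csf1 stood at 6.48 ± 1.11 and 8.15 ± 1.47 FPKM (log2 0.31, limma adjusted p = 0.206).

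None of 14 genes of heme and iron handling passed in limma, with 2 at an unadjusted p under 0.05 and a median of 0.08 (0.02 to 0.17 over the omissions of single spleens). The iron exporter gene Slc40a1 (ferroportin) stood at 111.8 ± 22.4 and 132.4 ± 3.25 FPKM (SD, n = 4 each; log2 0.26, limma adjusted p = 0.208), and passed without wild-type replicate 3 (log2 0.39, adjusted p = 0.0185). Hmox1, heme oxygenase 1, which opens the heme ring, stood at 121.6 ± 30.8 and 132.1 ± 20.6 FPKM (log2 0.14, adjusted p = 0.671). These 2 transcripts were close to Vcam1 in level.

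None of 12 macrophage transcription factor genes passed in limma, with 3 at an unadjusted p under 0.05 and a median of -0.03 (-0.05 to 0.04 over the omissions of single spleens). Maf, a factor of resident macrophages, stood at 14.9 ± 1.04 and 16.8 ± 0.492 FPKM (SD, n = 4 each; log2 0.17, limma adjusted p = 0.137).

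Of 13 other scavenger and lectin receptor genes 1 rose, with 7 at an unadjusted p under 0.05 in limma. The list median of 0.17 became 0.31 on omission of wild-type replicate 3 and 0.11 on omission of wild-type replicate 4. Vsig4, the complement receptor CRIg of resident macrophages, was at 0.264 ± 0.0486 FPKM in wild-type and rose to 0.970 ± 0.247 FPKM in TTPΔARE spleen (SD, n = 4 each), a difference of 0.93 on the log2 scale (limma adjusted p = 0.00493). At so low a level the pseudocount of 0.5 understates the change. The wild-type mean of Vsig4 was under the minimum of 0.5 FPKM, so the gene entered the test only through its TTPΔARE level. With no filter on low levels it also passed (limma adjusted p = 0.00920). Cd36 stood at 8.54 ± 1.01 and 11.2 ± 1.302 FPKM (log2 0.37, limma adjusted p = 0.0607). It passed without wild-type replicate 1 (0.0392) or TTPΔARE replicate 1 (0.0294), and with sample weights (0.0348). Cd209a stood at 4.32 ± 0.856 and 5.93 ± 0.886 FPKM (log2 0.42, adjusted p = 0.0971) and passed without wild-type replicate 2 (0.0494).

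Among 19 other macrophage genes none passed in limma, with 2 at an unadjusted p under 0.05 and a median of 0.09 (0.03 to 0.13 over the omissions of single spleens). The pore-forming gene Mpeg1 stood at 88.1 ± 5.49 and 105.2 ± 5.39 FPKM (SD, n = 4 each; log2 0.26, limma adjusted p = 0.0524), and passed without wild-type replicate 1 (0.0298), with quantile normalization (0.0193) and with sample weights (0.0278). The complement gene C1qa stood at 64.9 ± 10.2 and 65.3 ± 7.08 FPKM (log2 0.02, adjusted p = 0.961) and C1qc at 81.1 ± 10.7 and 89.7 ± 10.1 FPKM (log2 0.15, adjusted p = 0.484).

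**Figure D4:**
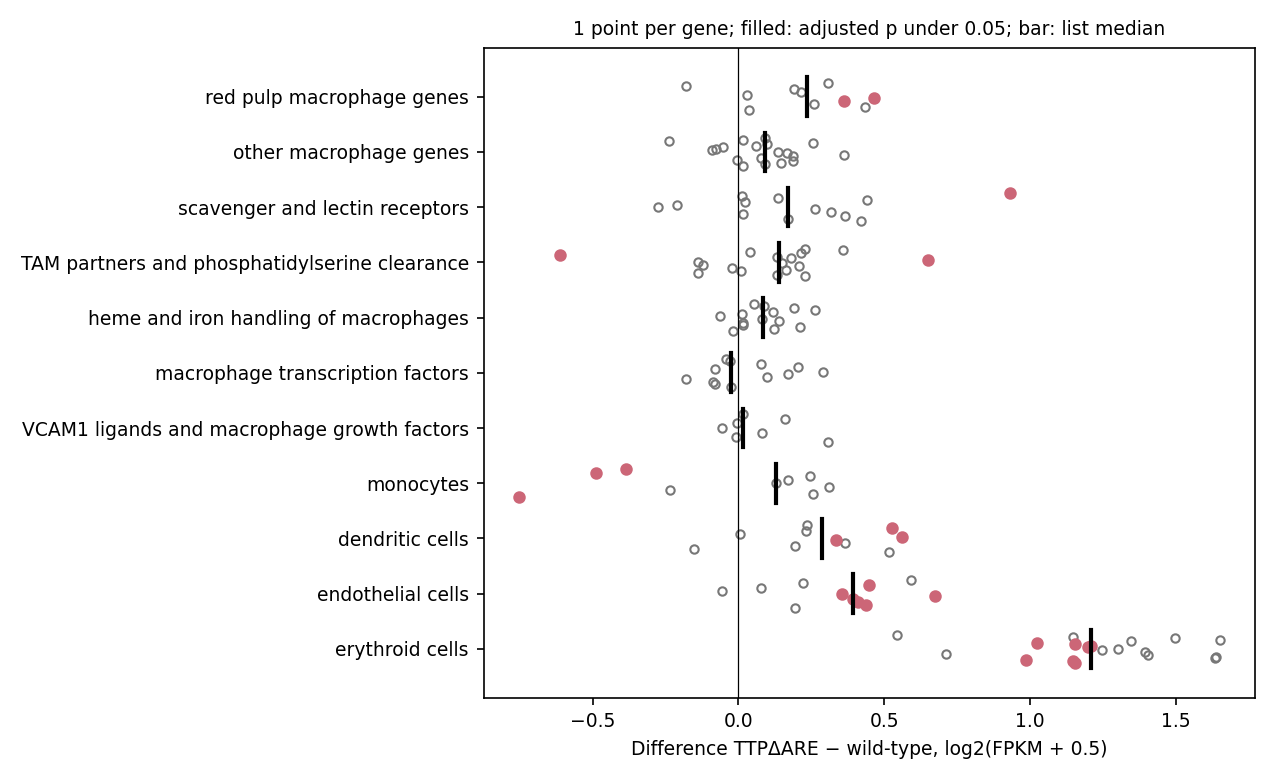
Difference between genotypes (TTPΔARE minus wild-type, log2(FPKM + 0.5), horizontal axis) of every tested gene in 11 gene lists (rows); 1 point per gene, filled where the adjusted p was under 0.05, and a bar at the list median. The 10 red pulp macrophage genes have a median of 0.24 and the other macrophage lists between -0.03 and 0.17. The monocyte median is 0.13, and the dendritic cell (0.29) and endothelial (0.39) medians are above that of the 10 genes. The erythroid list, at 1.21, lies to the right of all others.

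Markers of other cells moved between the same groups, and their part in the differences of the 10 genes was not tested. All 19 erythroid genes were higher in mean and 7 passed, Hba-a1 among them at 2234 ± 683 and 5053 ± 1125 FPKM (SD, n = 4 each). All 19 had an unadjusted p under 0.05 in limma. Summed over the list, the level was 6110 to 11342 FPKM in wild-type and 14696 to 22482 FPKM in TTPΔARE spleens, without overlap. Most of each sum was globin, such as Beta-s with means of 2742 and 5960 FPKM. The mean log2 level of the list, used as covariate, weighs the genes equally. It was 3.73 to 4.82 in wild-type and 4.84 to 5.76 in TTPΔARE spleens. Wild-type replicate 2, with the highest wild-type sum, had the lowest mean log2 level. In a fit with the mean erythroid level as covariate, which itself separates the genotypes, Emr1 stood at 0.22 (limma adjusted p = 0.856), Marco at 0.44 (0.736), Vcam1 at 0.07 (0.987), Cd163 at 0.16 (0.967), Cd68 at 0.07 (0.978), Mrc1 at 0.00338 (0.997), Spic at 0.15 (0.939) and Timd4 at -0.25 (0.814). Itgb3 stood at 0.23 (0.827). In this fit none of the 16608 transcripts passed, with 1112 at an unadjusted p under 0.05.

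Sinus endothelium also carries VCAM-1, but any part of endothelial cells in the Vcam1 difference was not tested. Endothelial markers were followed as a list. Of 11 tested, 6 rose and 9 had an unadjusted p under 0.05 in limma, with a median of 0.39. Among those that rose was Esam, at 5.89 ± 0.367 and 8.00 ± 0.502 FPKM (SD, n = 4 each, limma adjusted p = 0.00957). The sums of the list were 101.4 to 116.9 FPKM in wild-type and 118.2 to 132.5 FPKM in TTPΔARE spleens, without overlap. The general endothelial gene Pecam1 stood at 17.7 ± 0.610 and 17.0 ± 1.12 FPKM.

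Of 9 monocyte genes tested Ace, Lyz2 and Nr4a1 fell and 6 did not pass. Their median difference was 0.13 (0.00969 if wild-type replicate 1 is omitted), and 5 of the 9 differences were above 0, such as that of Ly6c2 (0.25, limma adjusted p = 0.128). The sums of that list were 653 to 853 FPKM in wild-type and 519 to 557 FPKM in TTPΔARE spleens, without overlap, but most of each sum was Lyz2 alone, at 652 ± 86.8 and 462 ± 16.3 FPKM (SD, n = 4 each). Of 10 dendritic cell genes Itgae, Xcr1 and Flt3 rose, and the sums of 92.5 to 107.5 and 103.0 to 108.3 FPKM overlapped. Of 12 stromal genes Wt1 rose and Ccl21a, Cxcl13, Madcam1 and Dcn fell, with sums of 237 to 273 and 170 to 235 FPKM. Of 9 neutrophil genes Mmp8 and Retnlg rose, with sums of 99.2 to 288 and 146 to 256 FPKM that overlapped. Of 8 B cell genes Cd22 and Fcer2a fell, with sums of 916 to 980 and 798 to 856 FPKM. None of 7 T cell genes passed in limma (3 at an unadjusted p under 0.05), with sums of 123 to 143 and 107 to 129 FPKM. Median log2 differences of the dendritic cell, neutrophil, stromal, B cell and T cell lists were 0.29, 0.27, -0.01, -0.23 and -0.12. At an unadjusted p under 0.05 in limma there were 8 dendritic cell, 6 monocyte, 5 stromal, 2 neutrophil and 6 B cell genes.

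Genes that mark macrophages of other tissues differed widely in level. The Kupffer cell gene Clec4f had no value above 0.0399 FPKM in any spleen, and the microglial gene Tmem119 stood at 0.745 ± 0.145 and 0.832 ± 0.110 FPKM (SD, n = 4 each). P2ry12, of microglia and platelets, stood at 5.004 ± 0.805 and 4.97 ± 0.932 FPKM and Chi3l3, of alternatively activated macrophages, at 5.45 ± 4.67 and 7.21 ± 3.51 FPKM, which is about the level of Cd163. Fabp4 stood at 3.34 ± 1.63 and 3.58 ± 2.16 FPKM. Of 5 such genes tested Gata6, the factor of peritoneal macrophages, was at 0.914 ± 0.163 FPKM in wild-type and rose to 1.35 ± 0.0587 FPKM in TTPΔARE spleen (SD, n = 4 each). The difference was 0.40 on the log2 scale (limma adjusted p = 0.0371), a call that 7 of the 8 omissions of single spleens ended (adjusted p up to 0.117). The call of Gata6 was also lost with no filter on low levels (0.0530), quantile normalization (0.0561) and the erythroid covariate (0.552). The summed level of the list was 11.3 to 21.6 FPKM in wild-type and 15.7 to 22.1 FPKM in TTPΔARE spleens.

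The genes whose within-group pattern was most like that of Spic and Emr1 were taken from 6402 symbols with a mean of at least 5 FPKM. For Spic they were Unc119 (r = 0.99), Tmub2 (0.98) and Tifab (0.98), and for Emr1 they were Mrpl32 (0.97), Pla2g7 (0.96) and Sdpr (0.95), each over the deviations of 8 spleens from their group means. Of these, Tifab stood at 5.22 ± 0.619 and 6.14 ± 0.615 FPKM and Pla2g7 at 18.1 ± 1.99 and 20.0 ± 2.70 FPKM (SD, n = 4 each). With 8 spleens and so many genes screened, high values of r arise readily, and these are given as a description.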

How the data were processed

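RNA of 8 whole spleens was sequenced. The authors deposited FPKM for each RefSeq transcript in each sample. The submitters' processing notes name BWA and mm10. How fragments were counted, on which annotation, with what strand setting and with which rule for reads of several places is not given in the sources used here. Groups follow the genotype labels.

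Because the values are FPKM, count models were not applied. The 16608 transcripts whose mean reached 0.5 FPKM were fitted as log2(FPKM + 0.5), a scale that understates changes of low transcripts. The fit used limma 3.58.1 in R 4.3.3 (eBayes with trend), with two-sided p-values adjusted by Benjamini-Hochberg over all of them and a threshold of 0.05. Exact permutation tests over 70 assignments cannot go below p = 0.0286. Depth came from the spacing of values up to 0.5 FPKM. At the depth chosen, 39.5 to 42.8% of these were whole fragments (within 0.05), and at other depths 8.64 to 8.84%. Most were not whole, so no counts were rebuilt. Fragment numbers use the lengths of the GENCODE M21 transcripts matched to the RefSeq transcripts, and cover counting error only. They were not computed for Cd68, for which no length was matched and which was placed by its symbol.

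The 10 genes and the lists of other genes, of which 196 of 198 symbols were found, were chosen with earlier results of these data known. Named genes are the 10 genes, Zfp36, per list the 3 of smallest p and the 1 of highest mean, and the 3 genes most like Spic and most like Emr1. Gas6, Pros1, Tyro3, Hmox1, C1qa, C1qc, Cd209b, Clec4f, Pecam1, P2ry12, Fabp4, Ly6c2, Dcn and Wt1 were named after their values were seen. Python 3.11.15, pandas 2.3.3, scipy 1.17.1 and matplotlib 3.10.9 were used for tables and plots.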

Additional observations from a re-analysis of the deposited data

How the results depend on the processing

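Alternatives were pseudocounts of 0.1 and 1, no filter and a mean of at least 1 FPKM, a threshold of 0.1, an erythroid covariate, 1 transcript per symbol, scaling by median of ratios or by quantiles, a robust variance, no trend of the variance, weighted samples and leaving out each spleen. At the threshold of 0.05, Emr1 lost its call with the erythroid covariate and Marco with that and with no filter, and both kept it in the other processing alternatives. Of the 10 genes, 1 was called with no filter, 0 with the erythroid covariate (limma; 1 at an unadjusted p under 0.05) and 0 to 2 when single spleens were left out. Of all transcripts, 0 were called with the covariate, 1362 at the threshold of 0.1 and 197 to 714 with a spleen left out. The counts were 250 without WT replicate 4, 197 without TTPΔARE replicate 3 and 254 without TTPΔARE replicate 4. Zfp36 stood at 0.21 on the log2 scale with the covariate (limma adjusted p = 0.873) and at 0.34 to 0.45 with a spleen left out. It lost its call without WT replicates 1 (0.0668) and 4 (0.0921) and without TTPΔARE replicates 1 (0.0736), 3 (0.108) and 4 (0.0859), each omitted singly. Differences that changed sign were those of Mertk (-0.0018 with weighted samples, -0.0355 with the covariate, -0.0232 to 0.11 with a spleen left out), Axl (-0.0680 with the covariate, -0.0272 to 0.10), Csf1r (0.0269 with quantile scaling, -0.0450 to 0.0311), C1qa (-0.17 with the covariate, -0.0822 to 0.0891), C1qc (-0.0467 with the covariate) and Hmox1 (-0.17 with the covariate). Beyond the construction of the alternatives (fewer spleens, more transcripts, a covariate that separates the genotypes), the cause was not tested. Vsig4, below a mean of 1 FPKM, has no value under that filter. No paired analysis was possible because the labels give no replicate numbers that pair the groups. The permutation calls of the 10 genes (log2 scale, summed transcripts) and the 3 genes with a heptamer (any annotated transcript) did not change.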
